A study of Homo sapiens with 13 samples.

Results

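A set of 10 genes that encode neuropeptides of neuroendocrine cells were followed in 2 small cell lung cancer (SCLC) cell lines, H82 and H146. The members were the rows of the expression tables with the symbols *GRP*, *NMB*, *NTS*, *TAC1*, *GAL*, *SST*, *VIP*, *ADCYAP1*, *CALCA* and *CALCB*, which are 10 of the 56831 genes in each table. H82 belongs to the SCLC-N subtype and H146 to the SCLC-A subtype, both labelled wild type and grown as established lines. RNA-seq was done on 4 groups: untreated H82 (3 libraries), H82 under FHD-286 (3 libraries), untreated H146 (3 libraries) and H146 under FHD-286 (4 libraries). FHD-286, an allosteric inhibitor of the ATPases SMARCA2 and SMARCA4 of the SWI/SNF chromatin remodelling complexes, was given at 100 nM for 14 days. The untreated cells carry the treatment label none, and a vehicle is not stated. Each group is 1 line, and the labels do not say that its libraries came from separate cultures, so that *p* values measure the spread between these libraries, which may be technical.

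Neuropeptides are made as long precursors, cut by prohormone convertases in dense core vesicles, trimmed, often amidated, and released to act on G protein-coupled receptors of the same or other cells. Pulmonary neuroendocrine cells store several of them, and gastrin-releasing peptide and calcitonin gene-related peptide (CGRP) are classical products of these cells. SCLC is known for hormone secretion, and gastrin-releasing peptide has long been described as a growth factor for it. The measurements below are of precursor mRNA and not of peptide.

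Positions are given on hg38 with GENCODE release 44. *GRP* lies at chr18:59220158-59230774 (plus strand), *ADCYAP1* at chr18:904871-912172 (plus), *NMB* at chr15:84655129-84658563 (minus) and *NTS* at chr12:85874295-85882992 (plus). *TAC1* lies at chr7:97732084-97740472 (plus), *GAL* at chr11:68683779-68691175 (plus), *SST* at chr3:187668912-187670394 (minus) and *VIP* at chr6:152750797-152759765 (plus). *CALCA*, at chr11:14966622-14972354 on the minus strand, lies within the span of *CALCB*, at chr11:14904997-15082342 on the plus strand. These are paralogs, and the strand setting of the counting is not given in the sources used here. The authors counted with GENCODE release 28, in which the overlap was not examined. The split of reads between *CALCA* and *CALCB* is therefore uncertain. *VIP* and *ADCYAP1* each overlap long noncoding RNAs of the opposite strand, with the same limit. A value per gene does not separate the calcitonin and CGRP transcripts of *CALCA*.

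The promoters of *SST* and *VIP* are textbook targets of the cyclic AMP pathway, so the windows from 250 bases before to 50 bases after the RefSeq start sites (GRCh38.p14) were searched for its response element. Windows were matched for 8 members, and *GAL* and *CALCB* had none. The full palindrome TGACGTCA was in the window of *SST* and in that of 2.25% of 27305 genes. Its 5-base part CGTCA, read on both strands and contained in the palindrome, was in the windows of 7 of the 8 members (*ADCYAP1*, *CALCA*, *GRP*, *NTS*, *SST*, *TAC1* and *VIP*) and of 28.4% of genes. *NMB*, the member called in H82 below, was the one with a window but without the 5-base part. The sites of *SST*, *VIP*, *GRP* and *NTS* are shown, each within 24 bases of the gene's strand, with the palindrome or the 5-base part in capitals.
*SST*, chr3:187670426-187670449 (minus strand), palindrome at position -47 from the start site: tcctagccTGACGTCAgagagaga
*VIP*, chr6:152750699-152750722 (plus strand), 5-base part at -89: tcccatggcCGTCAtactgtgacg
*VIP*, chr6:152750709-152750732 (plus strand), 5-base part on the other strand at -79: gtcatactgTGACGtctttcagag
*GRP*, chr18:59220061-59220084 (plus strand), 5-base part at -88: atagggagaCGTCAgagcgctctg
*NTS*, chr12:85874052-85874075 (plus strand), 5-base part at -234: ccttctgtgCGTCAgaaatccaaa
*NTS*, chr12:85874094-85874117 (plus strand), 5-base part at -192: agggaagatCGTCActttcactca
A match of letters is a description, not a binding site, and a part of these sites in the changes below was not tested.

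Values are TPM, which divide reads by gene length and scale each library to one sum, so that levels can be compared between genes. Reads per library are not in the values, and the depth is unknown. Mitochondrial genes took 22.1% to 24.1% of untreated and 12.3% to 14.9% of treated H82 libraries, where genes at 1 TPM or more numbered 21227 to 21772 and 15554 to 16633. In H146 the mitochondrial share was 7.56% to 8.86% without treatment and 3.82% (replicate 4) to 11.4% (replicate 1) with it. The neuroendocrine markers *SYP*, *CHGA*, *NCAM1*, *INSM1* and *UCHL1* were detected in all 13 libraries. In H82, *SYP* (log2 fold change -2.13) and *CHGA* (-2.36) fell and *UCHL1* (1.11) and *INSM1* (2.19, adjusted *p* = 0.0498) rose with treatment, by the limma fit described below, and *NEUROD1* went from 223.6–234.3 to 48.0–111.6 TPM, against at most 0.521 TPM in H146. *NCAM1* was not called in H82 (0.26, adjusted *p* = 0.186). In H146, *INSM1* (-0.50) and *UCHL1* (-0.44) fell by the same fit. *SYP* (-0.26, adjusted *p* = 0.150), *CHGA* (-0.12, adjusted *p* = 0.559) and *NCAM1* (0.12, adjusted *p* = 0.645) were not called there. Leukocyte markers summed to 2.39 to 7.90 TPM in H82, and to 6.91 to 10.2 TPM in untreated and 10.4 to 21.3 TPM in treated H146, where *LYZ* rose (1.23, adjusted *p* = 0.00247) and *CD14* was at 10.9 and 10.5 TPM in replicates 3 and 4 against 3.03 and 3.67 TPM in replicates 1 and 2. *PTPRC*, of the same leukocyte list, was at 4.49 to 6.23 TPM in untreated and 3.29 to 6.75 TPM in treated H146 and was not called. Endothelial markers summed to at most 2.65 TPM in all libraries. Fibroblast markers summed to 1.70 to 2.50 TPM in untreated and 7.98 to 35.3 TPM in treated H82, and to 6.78 to 8.78 TPM in untreated and 17.1 to 32.7 TPM in treated H146, and their part in the results was not tested. Epithelial markers went from 2234–2404 TPM in untreated to 574.8–647.1 TPM in treated H146, with *KRT19* (-3.97), *KRT8* (-2.02), *KRT18* (-1.71) and *EPCAM* (-1.09) lower, beside the peptide changes of that line, and their part in these was not tested either. *CDH1*, the remaining gene of that list, did not fall in H146 (0.23, adjusted *p* = 0.366). Treated H82 replicate 2 stood apart: epithelial markers summed to 113.6 TPM there, against 15.7 and 9.17 TPM in the other treated H82 libraries and 1.57 to 3.61 TPM in untreated H82. *CDH1* gave only 0.404 TPM of that sum. The endoderm factor *FOXA2* was at 35.7 TPM in that library, against 2.62 and 1.08 TPM in replicates 1 and 3, 0 in untreated H82 and 309.0 to 548.8 TPM in treated H146. *INSM1* was at 296.1 TPM there, against 32.1 and 33.9 TPM in replicates 1 and 3 and 12.5 to 15.8 TPM in untreated H82. Its fold change above includes that library. Apart from those of the markers, H82 results that change without this library are therefore given with and without it.

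The members called after treatment were not the same in the 2 lines, apart from *NMB*. A call in only 1 line does not show that the lines differ, which the interaction test given further below addresses. In H146, *GRP* fell from a mean of 70.1 to 0.588 TPM, *NTS* rose from 3563 to 11157 TPM and *VIP* from 0.0956 to 6.01 TPM. In H82, *NMB* rose from 10.8 to 54.0 TPM, and *GRP* was higher in every treated library without passing the test. Treated and untreated libraries were compared within each line with limma on log2(TPM + 1), leaving out genes that did not reach 1 TPM in 3 libraries, with Benjamini-Hochberg adjustment and a threshold of 0.05. Of the 10 members, 5 passed this filter in H82 and 6 in H146, and some passed it only through the group where they are high. Of those tested in H82, 1 member was called higher and 0 lower, where 13.1% and 45.5% of all tested genes were. Without treated replicate 2, *NMB* and *CALCB* were called higher, and *CALCB* passed the filter only through treated libraries. Of those tested in H146, 4 were called higher and 1 lower, where 32.5% and 15.5% of all tested genes were, but *VIP* and *SST*, among the higher ones, passed the filter only through treated libraries. With no filter all 10 members could be tested, and 2 were called higher (*NMB* and *SST*) and 0 lower in H82, where 6.45% and 25.9% of all genes were, and *VIP*, *SST* and *ADCYAP1*, listed at 0 in untreated H82, could not have been lower. In H146 this gave 2 higher (*VIP* and *NTS*) and 2 lower (*GRP* and *CALCA*), where 14.4% and 7.57% of all genes were. The median log2 fold change of the 10 members was then 0.73 in H82, against -0.26 over all genes, and 0.33 against 0.08 in H146. When libraries were scaled by the median of ratios, the medians of all genes moved to -0.14 and -0.02, 2 members were called higher in H82 (*NMB* and *CALCB*), and 2 higher and 1 lower in H146 (*VIP*, *NTS* and *GRP*).

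**Figure D1:**
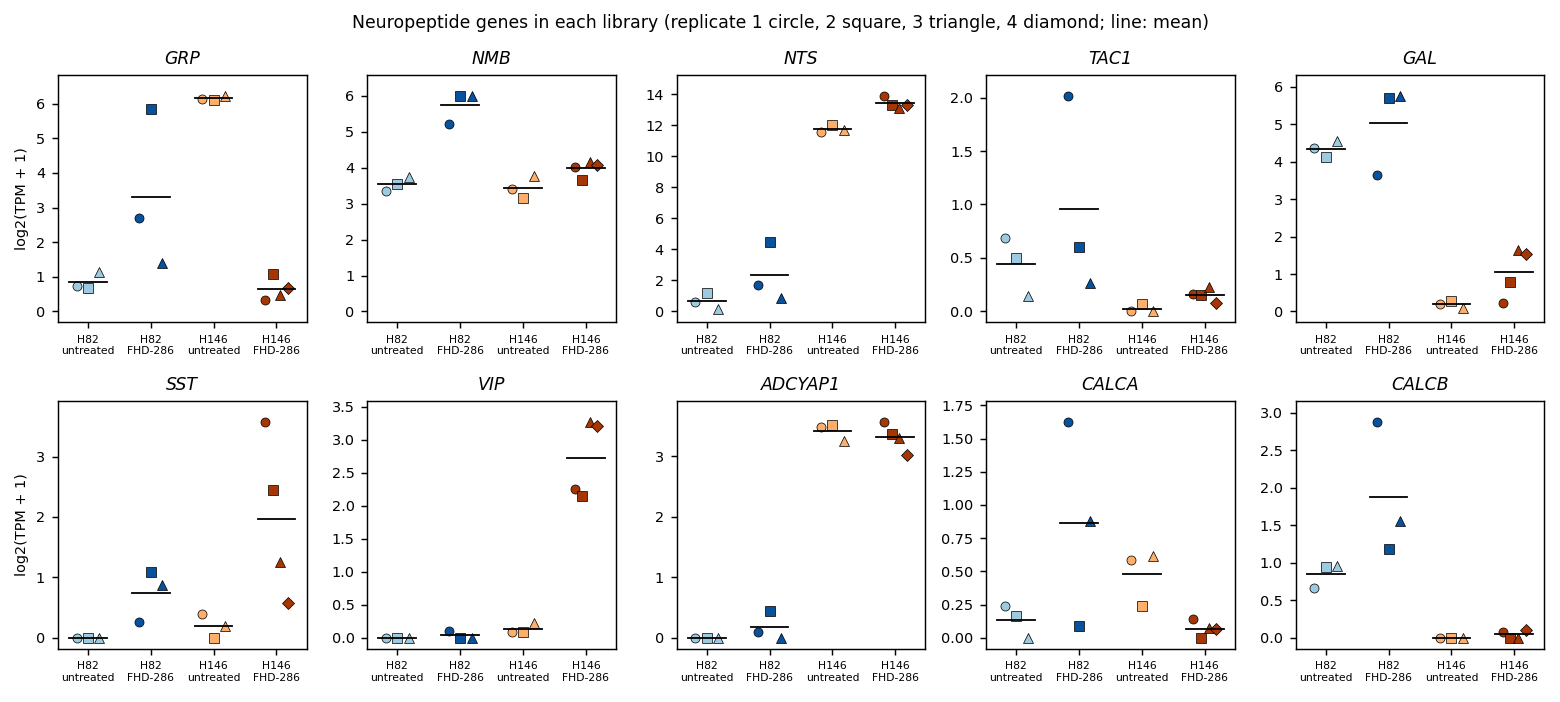
Level of each of the 10 neuropeptide genes in the 13 libraries, as log2(TPM + 1) on the vertical axis, by group on the horizontal axis. Points are libraries (shape gives the replicate number, which does not pair groups) and lines are group means, and each panel has its own scale. The 4 treated H146 libraries lie at the bottom for GRP and above the untreated ones for NTS and VIP, while the 3 treated H82 libraries lie above the untreated ones for NMB.

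*GRP* encodes gastrin-releasing peptide, the ligand of the receptor GRPR. In H146, the untreated libraries held 69.0, 67.9 and 73.5 TPM and the treated ones 0.258, 1.13, 0.378 and 0.588 TPM. The untreated libraries were tightly grouped, and all 4 treated ones lay far below them. The group means of 70.1 ± 2.96 (SD, n = 3) and 0.588 ± 0.384 (SD, n = 4) TPM differed 119-fold, and the log2 fold change was -5.51 (SE 0.200, adjusted *p* = 1.83e-06). In RNA of whole cultures, fewer cells with the transcript and less of it per cell cannot be told apart.

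In H82 the order was the other way. *GRP* was at 0.676, 0.609 and 1.20 TPM in the untreated libraries and at 5.48, 56.4 and 1.65 TPM in the treated ones. The groups did not overlap, which in this direction held for 3 of the 5 members tested in H82 (*GRP*, *NMB* and *CALCB*) and for 16.4% of all tested genes, but the treated libraries were widely spread. *CALCB* reached 1 TPM in treated libraries only, so that its lack of overlap followed from the filter. *GRP* reached 1 TPM in all treated libraries and in only 1 untreated one, so that the count is not a test of these members. On the log2 scale the difference of *GRP* was 2.46 (SE 1.02, adjusted *p* = 0.0742). Without treated replicate 2 it was 1.19 (adjusted *p* = 0.0538), and without treated replicate 3 it was 3.41 (adjusted *p* = 0.0185). Other values of replicate 2 stand beside this, and their part in its *GRP* was not tested. The 56.4 TPM lay above the highest treated H146 library (1.13 TPM) and below each untreated H146 library (at least 67.9 TPM). *GHRH*, at 347.6 TPM or more in each H146 library, was listed at 0 in it. A set of 8 genes, chosen after their values were seen for being high in H146 and near 0 in untreated H82, stood there at a median of 5.78% of their treated H146 level, against 0.264% and 0.121% in replicates 1 and 3.

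*GRP* responded differently in the lines by the test of the difference itself. The interaction of line and treatment over all 13 libraries gave a log2 difference of 7.97 (H82 response minus H146 response, SE 1.07, adjusted *p* = 6.13e-05), and 6.71 (adjusted *p* = 1.54e-06) without treated H82 replicate 2. Untreated H146 had the highest levels, followed by treated H82, with no overlap between them. Untreated H82 and treated H146 came last and overlapped.

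*NMB* encodes neuromedin B, the second mammalian bombesin-like peptide and the ligand of NMBR. It was at 9.19, 10.7 and 12.4 TPM in untreated H82 and at 36.4, 62.7 and 62.9 TPM in treated H82. All treated libraries lay above all untreated ones, with a mean 5.02-fold higher. The log2 fold change was 2.19 (SE 0.247, adjusted *p* = 0.000497), and 2.06 (adjusted *p* = 0.00252) without treated replicate 2.

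In H146, *NMB* was at 9.63, 7.89 and 12.6 TPM without treatment and at 15.4, 11.7, 16.8 and 16.0 TPM with it. The groups overlapped through treated replicate 2. The log2 fold change was 0.54 (SE 0.192, adjusted *p* = 0.0463), which became 0.24 (adjusted *p* = 0.334) under scaling by the median of ratios. The call was also lost without untreated replicate 1 or 2 or treated replicate 1, 3 or 4, at adjusted *p* from 0.0925 to 0.171. The response differed between the lines by 1.65 on the log2 scale (SE 0.319, adjusted *p* = 0.000824), being larger in H82. The untreated lines had overlapping levels of *NMB*, and treated H82 stood above the other groups.

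*NTS* encodes neurotensin together with neuromedin N. Untreated H146 held 3083, 4241 and 3365 TPM and treated H146 15165, 10094, 8986 and 10382 TPM. All treated libraries lay above all untreated ones, and *NTS* moved from rank 17 to 23 among 56831 genes in untreated H146 to rank 1 to 3 in treated H146. The mean was 3.13-fold higher, with a log2 fold change of 1.63 (SE 0.216, adjusted *p* = 0.000628), or 1.31 (adjusted *p* = 0.00384) under the median of ratios. Together the 10 members took 0.317% to 0.433% of the TPM of an untreated and 0.902% to 1.52% of a treated H146 library, and *NTS* made up at least 97.2% of that sum. In H82 the members took at most 0.0195%, in treated replicate 2, and at most 0.0122% in the other libraries.

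In H82, *NTS* was at 0.493, 1.33 and 0.132 TPM without treatment and at 2.23, 21.4 and 0.820 TPM with it. The groups overlapped, and 1 treated library was far above the rest. The log2 fold change was 1.69 (SE 0.878, adjusted *p* = 0.139), 0.62 (adjusted *p* = 0.249) without treated replicate 2 and 2.43 (adjusted *p* = 0.0469) without treated replicate 3. The 21.4 TPM of replicate 2 was 0.192% of the mean of treated H146. The interaction was 0.06 on the log2 scale (adjusted *p* = 0.962) and changed sign without that library, to -1.01 (adjusted *p* = 0.0652).

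*VIP* and *ADCYAP1* encode members of the secretin family, vasoactive intestinal peptide and PACAP, which share receptors. *VIP* was at 0.0609, 0.0606 and 0.165 TPM in untreated H146 and at 3.75, 3.43, 8.60 and 8.28 TPM in treated H146. All treated libraries lay above all untreated ones, with replicates 3 and 4 above 1 and 2. The mean was 62.9-fold higher, and the log2 fold change was 2.59 (SE 0.314, adjusted *p* = 0.000406). A pseudocount of 1 TPM understates the change of a gene this low, and with 0.1 TPM it was 4.88 (adjusted *p* = 0.000151). In H82, *VIP* was listed at 0 in all untreated libraries and in 2 of 3 treated ones, with 0.0754 TPM in the other (exact permutation test, two-sided, *p* = 1.0, where 0.1 is the smallest this design can give). The responses differed by -2.55 (H82 minus H146, SE 0.376, adjusted *p* = 0.000120).

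*ADCYAP1* was at 10.2, 10.4 and 8.51 TPM in untreated H146 and at 10.8, 9.32, 8.85 and 7.13 TPM in treated H146. The groups overlapped, and the log2 fold change was -0.10 (SE 0.168, adjusted *p* = 0.645). In H82 it was listed at 0 in the untreated libraries and at 0.0628, 0.365 and 0 TPM in the treated ones (exact permutation test, *p* = 0.4).

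*SST* encodes somatostatin, which inhibits the release of many hormones. The untreated H146 libraries held 0.312, 0 and 0.141 TPM and the treated ones 10.8, 4.48, 1.39 and 0.486 TPM. The groups did not overlap, and the treated libraries spread over the whole range between 0.486 and 10.8 TPM. Of the 6 members tested in H146, 3 were without overlap and higher (*VIP*, *SST* and *NTS*), against 35.7% of all tested genes, and 1 was lower (*GRP*), against 17.3%. *VIP* and *SST* passed the filter only through treated libraries, and *GRP* through its untreated ones and treated replicate 2. The places of these members in the count were therefore set in large part by the filter. The log2 fold change of *SST* was 1.77 (SE 0.625, adjusted *p* = 0.0449), which missed the threshold under the median of ratios (1.66, adjusted *p* = 0.0604). It also missed it without untreated replicate 1, 2 or 3 or treated replicate 1 or 2, at adjusted *p* from 0.0617 to 0.121. In H82, *SST* was listed at 0 in all untreated libraries and at 0.193, 1.12 and 0.826 TPM in the treated ones. The exact permutation test gave *p* = 0.1, the smallest that 3 libraries against 3 allow, so that this design cannot pass the threshold.

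*VIP* and *SST* did not order the treated H146 libraries alike. Replicates 1 and 2 were the higher pair for *SST* and replicates 3 and 4 for *VIP* and *GAL*. The labels give no batch for these libraries. Replicates 3 and 4 had the highest correlation of log2(TPM + 1) among the treated H146 libraries, at 0.988.

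*CALCB* encodes the beta form of CGRP. In H82 it was at 0.585, 0.922 and 0.936 TPM without treatment and at 6.31, 1.27 and 1.94 TPM with it. The groups did not overlap, with 1 treated library far above the other two. The fitted log2 fold change was 1.02 (SE 0.430, adjusted *p* = 0.0788), 1.36 (adjusted *p* = 0.0342) without treated replicate 2 and 1.30 (adjusted *p* = 0.0486) under the median of ratios. Without treated replicate 1, the highest of them, it was 0.52 (adjusted *p* = 0.0933). In H146, *CALCB* was listed at 0 in the untreated libraries and at no more than 0.0763 TPM in the treated ones (exact permutation test, *p* = 0.429). The interaction was 0.97 (adjusted *p* = 0.0739), and 1.31 (adjusted *p* = 0.0126) without treated H82 replicate 2.

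*CALCA* encodes calcitonin and the alpha form of CGRP. It was low in both lines, at 0.180, 0.122 and 0 TPM in untreated H82 and at 2.08, 0.0652 and 0.839 TPM in treated H82 (exact permutation test, *p* = 0.3). The untreated H146 libraries held 0.499, 0.180 and 0.533 TPM and the treated ones 0.103, 0, 0.0504 and 0.0470 TPM. Each treated H146 library lay below each untreated one, and the exact permutation test gave *p* = 0.0286, the smallest for 3 libraries against 4. The p-values of the 9 members or lines below the filter are not adjusted.

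*GAL* encodes galanin. In H82 it was the highest member before treatment, at 19.6, 16.6 and 22.4 TPM, and stood at 11.6, 51.1 and 53.0 TPM with treatment. Treated replicate 1 lay below all untreated libraries and the other two lay above them. The fitted log2 fold change was 0.69 (SE 0.546, adjusted *p* = 0.312), 1.38 (adjusted *p* = 0.000500) without treated replicate 1 and 0.35 (adjusted *p* = 0.636) without treated replicate 2. In H146, *GAL* was at 0.148, 0.221 and 0.0672 TPM without treatment and at 0.169, 0.737, 2.15 and 1.93 TPM with it (exact permutation test, *p* = 0.0857). Every H82 library held more *GAL* than any H146 library.

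*TAC1* encodes substance P and neurokinin A. It stayed low, at 0.609, 0.412 and 0.108 TPM in untreated H82 and at 3.04, 0.515 and 0.203 TPM in treated H82, where the groups overlapped (exact permutation test, *p* = 0.5). In H146 the untreated libraries held no more than 0.0508 TPM and the treated ones 0.0530 to 0.170 TPM (exact permutation test, *p* = 0.0571).

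**Figure D2:**
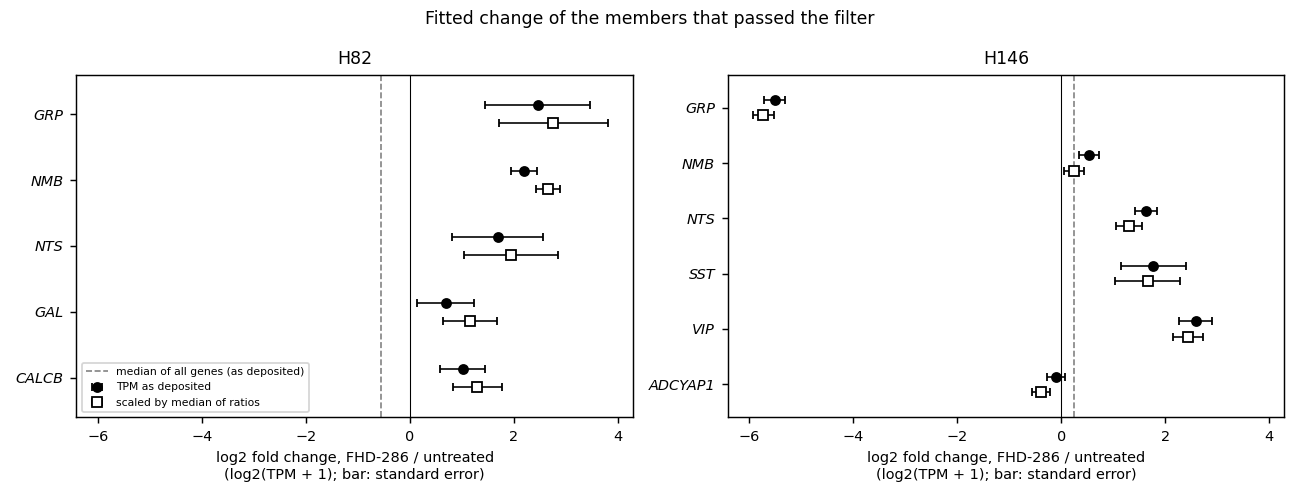
Log2 fold change of treated over untreated libraries on log2(TPM + 1) (horizontal axis) for the 5 members tested in H82 and the 6 tested in H146, with standard errors as bars. Filled circles are TPM as deposited, open squares are values scaled by the median of ratios, and the dashed line is the median of all tested genes, at -0.56 in H82 and 0.25 in H146. GRP lies at -5.51 in H146, and the bars of GRP and NTS in H82 are wide.

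The lines differed before treatment. Of the 8 members tested over the 13 libraries, 3 were lower in untreated H82 than in untreated H146 and 2 were higher, where 29.5% and 41.4% of all tested genes were. *NTS* (-11.13, adjusted *p* = 2.06e-08), *GRP* (-5.29, adjusted *p* = 5.31e-05) and *ADCYAP1* (-3.41, adjusted *p* = 8.00e-09) were lower on the log2 scale. *GAL* was higher (4.15, adjusted *p* = 9.54e-06). *CALCB* was called higher too (0.85, adjusted *p* = 0.0300), but not under the median of ratios (adjusted *p* = 0.0605) nor without any 1 of the untreated H146 libraries or untreated H82 replicate 2 or 3 (adjusted *p* from 0.0636 to 0.0748). For the response to treatment, 2 members (*GRP* and *NMB*) had a higher log2 fold change in H82 and 1 (*VIP*) a lower one, where 13.3% and 46% of all tested genes did. Over the 13 libraries, *ADCYAP1* passed the filter only through H146, *CALCB* only through treated H82 and *VIP* only through treated H146. The places of these members in the counts were therefore set in part by the filter.

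The receptors of these peptides form a list of 25 genes, of which 7 passed the filter in H82 and 10 in H146. In H82, 3 were lower and 1 was higher after treatment (4 and 1 without treated replicate 2), where 45.5% and 13.1% of all tested genes were, and the median log2 fold change was -0.68, where that of all genes was -0.56. *GALR2*, among the lower ones, passed the filter in H82 only through untreated libraries, so the filter in part set its place in this count. *RAMP1*, the subunit that makes the calcitonin receptor-like receptor a CGRP receptor, rose from 12.8–15.8 TPM over the untreated libraries to 52.2–57.6 TPM over the treated ones (log2 fold change 1.89, SE 0.141, adjusted *p* = 0.000153). *ADCYAP1R1*, the PACAP receptor PAC1, fell from 24.6–26.8 to 9.34–10.5 TPM (-1.29, adjusted *p* = 0.000447). *GALR2*, a galanin receptor, fell from 1.71–2.81 TPM to at most 0.305 TPM (-1.51, adjusted *p* = 0.00145), a call lost under quantile normalization (adjusted *p* = 0.0765). *SORT1*, sortilin, which binds neurotensin and sorts proteins in the cell, was called lower (-0.76, adjusted *p* = 0.0263). That call was lost under the median of ratios (-0.28, adjusted *p* = 0.281) and without untreated replicate 1, 2 or 3 (adjusted *p* from 0.0692 to 0.0827), and without treated replicate 1 the change was -0.50 (adjusted *p* = 0.00358).

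In H146, 5 receptor genes were higher and 2 lower, where 32.5% and 15.5% of all tested genes were, with a median of 0.70 against 0.25 over all genes. *CALCRL*, among the higher ones, passed the filter only through treated libraries. Other low genes may have passed through a single group too, so that the count is not a test of the receptors. *CALCRL*, the partner of *RAMP1*, rose from 0.568–0.765 to 4.58–9.04 TPM (log2 fold change 2.18, SE 0.243, adjusted *p* = 0.000278), and *RAMP1* rose from 7.27–10.4 to 12.1–29.3 TPM (1.18, adjusted *p* = 0.0101). *GALR2* fell from 30.9–35.8 to 4.14–5.03 TPM (-2.64, SE 0.134, adjusted *p* = 6.58e-06). The others called, named after their values were seen, were *GALR1* (1.20), *NMBR* (1.28) and *RAMP2* (0.84), which rose, and *BRS3* (-1.56), the orphan bombesin-like receptor, which fell. *GRPR*, also named after its values were seen, was at no more than 0.298 TPM in any library of either line. *SORT1*, the highest in this line with *GALR2* and *RAMP1*, was at 16.0–21.9 and 19.2–28.4 TPM (0.26, adjusted *p* = 0.245).

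**Figure D3:**
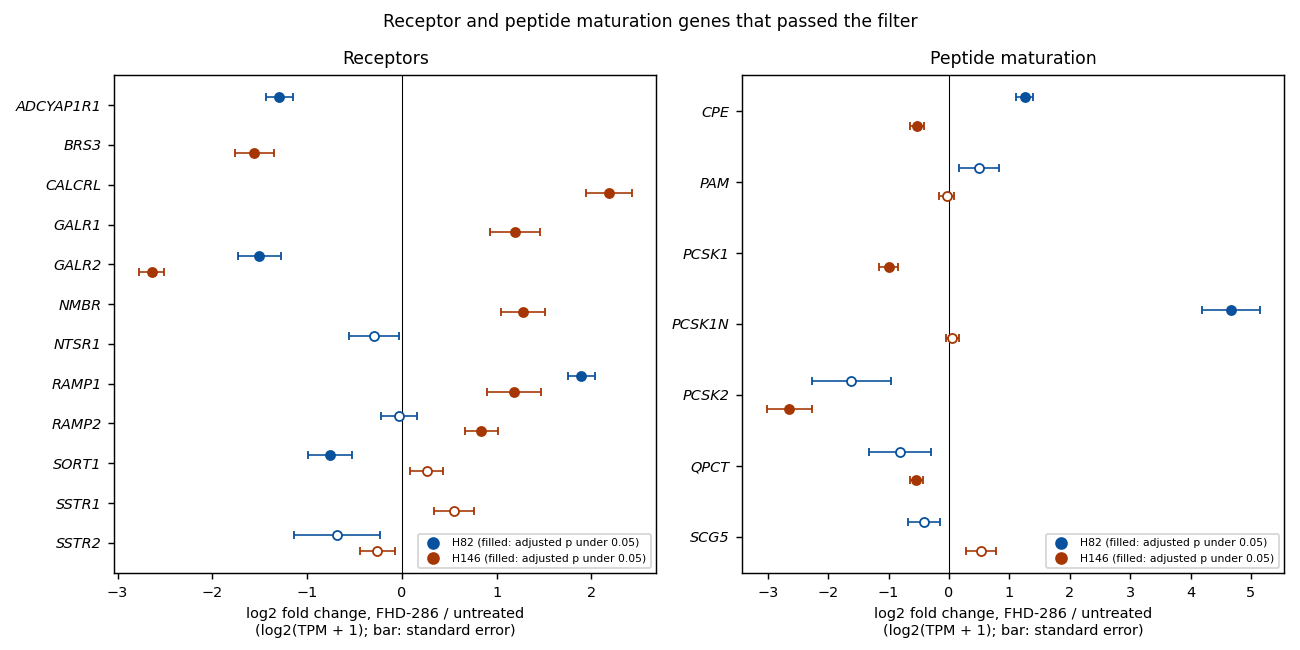
Log2 fold change of treated over untreated libraries on log2(TPM + 1) (horizontal axis) for the receptor and peptide maturation genes that passed the filter, with standard errors as bars. Blue is H82, brown is H146 and filled points passed the threshold. GALR2 lies below 0 and RAMP1 above 0 in both lines, whereas CPE lies on opposite sides.

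Among the 7 genes for enzymes and chaperones that mature peptides, 4 differed between the lines in their response by the interaction test (*PCSK1N*, *PCSK1*, *CPE* and *SCG5*) and 3 did not pass it (*PCSK2*, *PAM* and *QPCT*). The response in H82 was the higher one for *PCSK1N*, *PCSK1* and *CPE* and the lower one for *SCG5*. Of all tested genes, 13.3% were higher and 46% lower by this test. *SCG5* missed the threshold under the median of ratios (-0.33, adjusted *p* = 0.498). Of the 7 genes, 6 were tested in H82, and 2 were higher and 0 lower (median 0.04 against -0.56), where 13.1% and 45.5% of all tested genes were. Without treated replicate 2 there were 2 of each. Among the genes then lower was *PCSK2*, which encodes the convertase PC2 and was at 17.3, 15.8 and 16.2 TPM in untreated and at 2.06, 17.2 and 2.31 TPM in treated H82 (log2 fold change -1.61, adjusted *p* = 0.0692, and -2.45, adjusted *p* = 0.000777, without that library). All 7 were tested in H146, where 4 were lower and 0 higher (median -0.53 against 0.25), beside 15.5% and 32.5% of all tested genes. *CPE*, carboxypeptidase E, which trims basic residues, rose from 223.2–241.7 to 544.9–563.5 TPM in H82 (log2 fold change 1.25, SE 0.136, adjusted *p* = 0.000442). It fell from 207.2–232.8 to 139.9–175.7 TPM in H146 (-0.53, SE 0.116, adjusted *p* = 0.00657). *PCSK1N*, which encodes proSAAS, an inhibitor of the convertase PC1/3, rose in H82 from 0.985, 0.381 and 1.95 TPM to 62.1, 81.5 and 24.3 TPM (4.66, SE 0.481, adjusted *p* = 0.000381, and 4.32, adjusted *p* = 0.00161, without treated replicate 2). Its untreated H146 libraries held 147.6 to 180.4 TPM and its treated ones 164.4 to 180.1 TPM (0.06, adjusted *p* = 0.699). Both convertases fell in H146. *PCSK2* went from 31.7–37.8 to 2.39–8.71 TPM (-2.64, adjusted *p* = 0.000807) and *PCSK1* from 136.2–170.4 to 65.5–91.3 TPM (-1.0, adjusted *p* = 0.00147). *SCG5*, the chaperone 7B2 of PC2, was at 30.6–35.9 and 16.6–35.1 TPM in untreated and treated H82 (-0.41, adjusted *p* = 0.225), and without treated replicate 1 it was called lower (-0.65, adjusted *p* = 0.0251).

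The other neuropeptide and peptide hormone precursors, 46 genes, gave 16 tested genes in H82, of which 11 were lower and 2 higher (median -1.77 against -0.56), beside 45.5% and 13.1% of all tested genes. Low genes among them could pass the filter through untreated libraries alone, so that this count is not a test of the precursors. *NPS*, neuropeptide S, was the leading precursor of untreated H82, at 426.1, 443.7 and 443.5 TPM. It stood at 53.1, 119.2 and 166.7 TPM with treatment, below all untreated libraries (log2 fold change -2.09, SE 0.387, adjusted *p* = 0.00338). *PYY*, peptide YY, fell from 24.6–35.4 to 1.32–1.65 TPM (-3.67, adjusted *p* = 9.51e-05). *NPW*, neuropeptide W, rose from 10.7–14.9 to 58.8–122.4 TPM (2.70, adjusted *p* = 0.000376) and led the precursors in treated replicates 1 and 2. *NMU*, neuromedin U, was the other precursor called higher in H82, from 1.05–1.18 to 2.49–17.2 TPM (1.67, adjusted *p* = 0.0426), a call lost without any 1 of the untreated replicates (adjusted *p* from 0.0975 to 0.113), and 0.94 (adjusted *p* = 0.0189) without treated replicate 2. *UCN*, urocortin, was at 24.1–28.9 and 9.78–37.7 TPM (-0.40, adjusted *p* = 0.446), and without treated replicate 1 it was called lower (-0.85, adjusted *p* = 0.0411).

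In H146, 20 of these precursors were tested, 5 of them lower and 6 higher (median -0.29 against 0.25), beside 15.5% and 32.5% of all tested genes. The same limit of the filter holds here for low genes, in either direction. Scaling by the median of ratios made this 8 lower and 3 higher. *GHRH*, growth hormone-releasing hormone, was second to *NTS* in untreated H146 and fell from 2373, 2927 and 2991 TPM to 580.5, 537.3, 347.6 and 356.2 TPM (log2 fold change -2.63, SE 0.214, adjusted *p* = 6.25e-05). *UCN3*, urocortin 3, fell from 352.1, 430.7 and 396.0 TPM to 66.6, 76.9, 15.4 and 10.3 TPM (-3.64, SE 0.652, adjusted *p* = 0.00258). For both, treated replicates 3 and 4 were the lower pair. *CARTPT*, the precursor of the CART peptides, rose from 3.17, 1.97 and 3.02 TPM to 43.0, 37.8, 10.4 and 12.5 TPM (2.62, SE 0.486, adjusted *p* = 0.00305). *NMU* was at 182.9–202.6 and 104.1–199.4 TPM (-0.35, adjusted *p* = 0.250). *NTS* was the leading precursor of all 7 H146 libraries, at 3083 of 6207 TPM summed over the 56 precursors in untreated replicate 1 and 15165 of 16217 TPM in treated replicate 1.

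**Figure D4:**
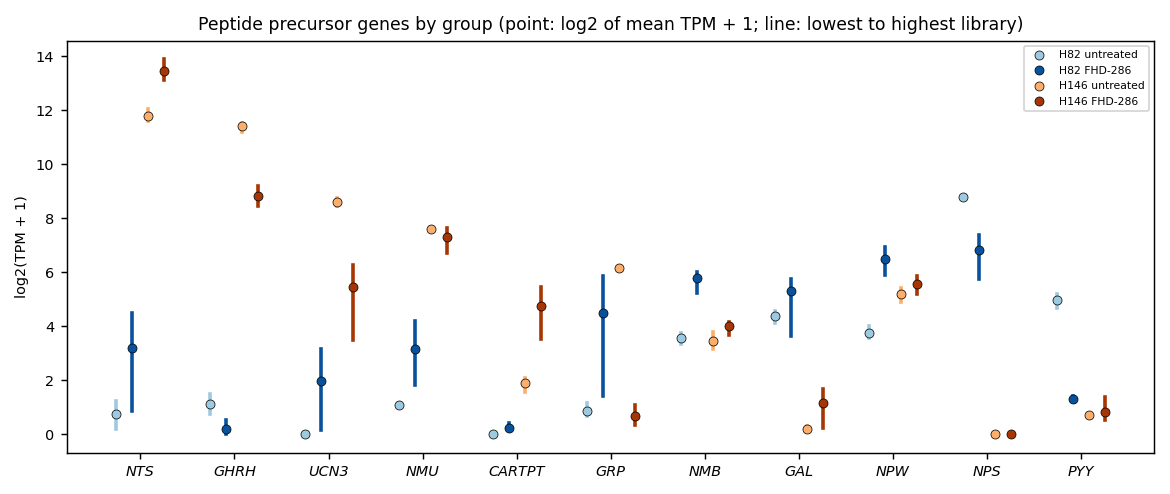
Level of 11 peptide precursor genes by group, as log2(TPM + 1) on the vertical axis. Points are the log2 of the group's mean TPM + 1 and lines run from the lowest to the highest library of the group. NTS is highest in treated H146, GHRH, UCN3 and GRP lie lower in treated than in untreated H146, and NPS and PYY lie lower in treated than in untreated H82.

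The genes whose log2(TPM + 1) was most like that of the 2 members with the highest mean were listed as a description over the 13 libraries, which share the TPM scale and fall into 2 lines. For *NTS* these were *RP11-480D4.3*, *BMP2*, *KITLG*, *CHCHD5* and *TENM3*, with Pearson's r of 0.997 each. *BMP2*, a secreted growth factor, went from a mean of 45.6 to 106 TPM in H146 and from 0 to 1.39 TPM in H82. For *NMB* they were *PLPP3*, *SNRPG*, *SNU13*, *TLCD1* and *ZCCHC17*, with r from 0.973 to 0.979.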

How the data were processed

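Per the labels and the study's methods, the authors sequenced RNA of H82 and H146 cells, mapped the reads to hg38, counted them with STAR and GENCODE release 28, and compared groups with DESeq2. The submitters' processing notes also list Trim Galore 0.4.4, with no role given. The authors deposited 1 table of TPM values per line, with 56831 genes and a sum of 1000000 in each of the 13 libraries. How gene length was taken and the strand setting are not given in the sources used here. TPM carries no scaling between libraries beyond that sum, depth is unknown, and the spread between libraries sets the precision.

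Each line was fitted with limma 3.58.1 (statmod 1.5.0, R 4.3.3; lmFit, eBayes with trend) on log2(TPM + 1), two-sided, over genes with 1 TPM or more in at least 3 of its libraries, with Benjamini-Hochberg adjustment. The line difference and the contrast of the untreated lines (H82 minus H146) came from 1 fit over all 13 libraries with line, treatment and their interaction. Members below the filter were compared by an exact permutation test, two-sided, of the mean log2(TPM + 1). A count model could not be used on TPM. The tables and plots were made with Python 3.11.15 (numpy 2.4.6, pandas 2.3.3, scipy 1.17.1 and, for plots, matplotlib 3.10.9). The permutation tests went through every split of the libraries, with means taken in numpy. The fits were tested on simulated data.

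The members and the lists of receptors, maturation genes, other precursors and cell markers were chosen with earlier results of these data known. Named were all members, the genes of each list past the threshold with the largest rise and fall per line, up to 3 of the highest genes of each list, and 5 genes most like each of the 2 highest members. Others are marked in the text. Alternatives were a pseudocount of 0.1 TPM, no filter, a mean TPM above 2, the median of ratios, quantile normalization, eBayes without trend, library weights, the replicate number as a block and each library left out. After the data were seen, group means of TPM were also compared as log2 ratios without a pseudocount. Replicate numbers did not pair libraries: deviations of same-numbered libraries correlated at -0.0782 to 0.021. Promoter sequences came from RefSeq.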

Additional observations from a re-analysis of the deposited data

Results flagged for a closer look

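A test of the difference between the lines picked out genes of all 4 lists, each with an adjusted *p* under 0.05 for the interaction of line and treatment (limma, log2 scale, response in H82 minus response in H146, over 13 libraries). Among the 8 members tested, 3 passed, *GRP* (7.97), *NMB* (1.65) and *VIP* (-2.55). *VIP* reached 1 TPM in treated H146 libraries only, so the filter in part set its place in this count. Among the 12 receptor genes tested, 2 were higher, *BRS3* (1.60) and *GALR2* (1.14), and 6 were lower, *RAMP2* (-0.87), *SORT1* (-1.02), *GALR1* (-1.20), *NMBR* (-1.28), *ADCYAP1R1* (-1.69) and *CALCRL* (-2.09). Among the 7 maturation genes, 3 were higher, *PCSK1N* (4.61), *PCSK1* (2.77) and *CPE* (1.78), and 1 was lower, *SCG5* (-0.94). Among the 26 other precursors tested, 8 were higher, *UCN3* (5.0), *NPY* (2.80), *NPW* (2.36), *NMU* (2.02), *GHRH* (1.71), *PENK* (1.49), *AVP* (1.47) and *TAC3* (1.18). The 13 lower ones were *ADM* (-1.26), *AGRP* (-1.33), *GHRL* (-1.33), *TAC4* (-1.47), *GIP* (-1.66), *GNRH1* (-1.87), *NPS* (-2.09), *CARTPT* (-2.39), *QRFP* (-2.59), *CORT* (-2.68), *OXT* (-3.07), *GNRH2* (-3.39) and *PYY* (-3.73). Of all tested genes, 13.3% were higher and 46% lower. Under the median of ratios *SORT1* (-0.24, adjusted *p* = 0.435), *SCG5* (-0.33, adjusted *p* = 0.498), *RAMP2* (-0.12, adjusted *p* = 0.698), *ADM* (-0.61, adjusted *p* = 0.0921) and *GIP* (-1.02, adjusted *p* = 0.0633) missed the threshold. Under quantile normalization these and *AGRP*, *GHRL*, *GNRH1* and *TAC4* missed it, at adjusted *p* from 0.0633 (*SORT1*) to 0.914 (*RAMP2*), and *ADM* (0.0537) and *RAMP2* (0.0354) changed sign. *SCG5* (adjusted *p* from 0.0588 to 0.117) and *PENK* (0.0567 to 0.0776) missed it with any of most libraries left out, with no filter and with the replicate block. *CALCRL*, *CARTPT* and *UCN3* were listed at 0 in all untreated H82 libraries, and *NPS* was listed at 0 in all H146 libraries. *CALCRL* reached 1 TPM in treated H146 libraries only. *GALR1*, *NMBR*, *BRS3* and *NPY* did not pass the filter in H82. Their changes in H146 (1.20, 1.28, -1.56 and -2.74) were almost as large as the line differences, with the opposite sign, so H82 added almost nothing to these. With a pseudocount of 0.1 TPM the differences of *CARTPT* (-1.57, adjusted *p* = 0.0939), *GALR2* (-0.44, adjusted *p* = 0.556) and *GHRH* (-0.14, adjusted *p* = 0.885) missed the threshold, and those of *GALR2* and *GHRH* changed sign, while *TAC3* (adjusted *p* = 0.108) and *AGRP* (adjusted *p* = 0.0502) missed it with the same sign. *PCSK1* did not pass the filter in H82, where treated replicate 2 held 15.0 TPM against at most 0.788 TPM in the other H82 libraries. Without that library the difference was 1.71 for *PCSK1* (adjusted *p* = 0.000127), 1.30 for *NMU* (adjusted *p* = 0.00805) and 4.10 for *UCN3* (adjusted *p* = 0.00260). In the group of 4 treated H146 libraries no member had a library far from the others by Dixon's test, and groups of 3 were not tested.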

How the results depend on the processing

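In H82, 1 member was called higher as reported, 2 with no filter or under the median of ratios, 4 under quantile normalization or with library weights, and 1 to 3 when each library was left out in turn. In H146, 5 were called as reported (4 higher and 1 lower), 4 with no filter (2 and 2, with *SST* at adjusted *p* = 0.105 and *NMB* at 0.0826 lost and *CALCA* added), 3 under the median of ratios or quantile normalization, and 3 to 4 with a library left out. The count of H146 members below the filter with an exact permutation *p* under 0.05 was 1 (*CALCA*) and 0 without any 1 library, where the smallest *p* is 0.0667 or 0.1. With the replicate number as a block, 3 members were called in H82, with *GRP* (adjusted *p* = 0.0476) and *NTS* (adjusted *p* = 0.0312) added, and in H146 *NMB* was lost (adjusted *p* = 0.0837). The numbers do not pair these libraries, and treated H146 replicate 4 has no partner. Called directions of *GRP*, *NTS* and *VIP* in H146 and of *NMB* in H82 held in every alternative run.

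Among values that did not pass the test, some changed sign. Under the median of ratios these were, on the log2 scale, *PCSK1N* (-0.26) and *SORT1* (-0.043) in H146, *SCG5* (0.0704) and *UCN* (0.0688) in H82, the line difference of *GAL* (0.42) and the untreated difference of *NMB* (-0.13). Under quantile normalization they were *UCN* (0.0171) in H82, the line difference of *GAL* (0.30) and the untreated difference of *NMB* (-0.15). With each library left out in turn, the values ran from -0.0117 to 0.86 for *TAC1* in H82, -0.0306 to 0.11 for *PCSK1N* in H146, -0.85 to 0.0731 for *UCN* in H82, -0.53 to 0.52 for the line difference of *GAL*, -1.01 to 0.80 for that of *NTS*, and -0.0439 to 0.27 for the untreated difference of *NMB*. The cause of these changes was not tested. With depth unknown, the counting error of members near 0 TPM (*CALCA* and *TAC1* and, in H82, *VIP*, *SST* and *ADCYAP1*) is not known, and the design of 3 against 3 libraries cannot pass the exact test.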

Other observations

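Some precursors outside the rule for named genes, chosen after their values were seen, also changed. In H82, 11 precursors were lower, among them *OXT*, oxytocin, from a mean of 7.91 to 0.561 TPM (log2 fold change -2.56, limma adjusted *p* = 0.000407), *CORT*, cortistatin, a relative of somatostatin, from 13.1 to 1.70 TPM (-2.42, adjusted *p* = 0.000480), and the gonadotropin-releasing hormones *GNRH1* (-2.13, adjusted *p* = 0.000573) and *GNRH2* (-2.50, adjusted *p* = 0.000342). In H146, *NPY*, neuropeptide Y, fell from 9.26 to 0.552 TPM (-2.74, adjusted *p* = 3.08e-05), *TAC3*, the neurokinin B precursor and a relative of *TAC1*, from 6.77 to 2.01 TPM (-1.37, adjusted *p* = 0.00102) and *AVP*, vasopressin, from 3.96 to 1.14 TPM (-1.22, adjusted *p* = 0.00285).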
